A study of Mus musculus with 9 samples.

Results

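The Shank, Homer and Dlgap genes encode the 3 layers of scaffold beneath the excitatory synapse, and all 10 of them (Shank1 to Shank3, Homer1 to Homer3 and Dlgap1 to Dlgap4) were found by symbol among the 14444 genes measured. Prefrontal cortex was taken from mice of 5 to 8 postnatal weeks, and its RNA was sequenced in 3 groups of 3 libraries. Wild-type mice were given saline, Shank3 mutant mice were given saline, and Shank3 mutant mice were given UNC0642, an inhibitor of the histone methyltransferases EHMT1 and EHMT2, by intraperitoneal injection of 1 mg/kg, 1 injection a day for 3 days. The labels give the mutant genotype without its allele, and no wild-type mice given UNC0642 were analysed here. They do not say that the libraries of a group are separate animals, so each p reflects how libraries vary and that variation may be technical.

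Dlgap proteins (also called GKAP or SAPAP) bind the guanylate kinase domain of PSD-95, which holds glutamate receptors at the membrane. Shank proteins bind the Dlgap layer through their PDZ domain and recruit Homer and cortactin through their proline-rich region. Homer proteins carry an EVH1 domain that binds Shank, group I metabotropic glutamate receptors and the inositol trisphosphate receptor, and their long forms tetramerize through a coiled coil. Homer1 also makes a short form, Homer1a, which lacks the coiled coil and is induced by neuronal activity. Shank3 is a cause of Phelan-McDermid syndrome and of autism when mutated. The measured values are totals over all transcripts of a gene, so Homer1a and the long Homer1 forms were not separated, nor were the isoforms of the Shanks.

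The deposited values, called CPM by the authors, had been adjusted so that, gene by gene, the mean log2 value of 5 libraries (wild type and UNC0642 replicates 2 and 3) equals that of the other 4. This step removes most of a difference present in saline mutants alone. The whole reads behind the values were therefore solved for, and both scales are given. Values in RPM below are recovered reads scaled to a library of 1000000 reads, from library totals of 12035098 to 16165483 reads. On that scale the 9 libraries fall on 2 sides along the first principal component (62.7% of the variance of genes with at least 50 reads on average), with wild type and UNC0642 replicate 3 on the first side and the saline mutants and UNC0642 replicates 1 and 2 on the second. No label names a reason, and only UNC0642 replicate 3 separates genotype from side. The tissue label was borne out by markers in every library. Slc17a7, the vesicular glutamate transporter of cortical excitatory neurons, lay between 1356 and 1910 RPM, whereas Drd2, a striatal marker, lay between 0.369 and 3.53.

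In wild-type cortex the scaffold genes covered a wide range of levels per length. Dlgap3 stood highest, at 107 ± 7.23 RPM per kb of exon (SD, n = 3), and it outranked 97.8% of the 13869 genes with a length. Shank1 followed at 72.4 ± 5.94, Dlgap4 at 40.3 ± 1.1, Shank3 at 34.7 ± 2.74 and Dlgap1 at 34.4 ± 2.24. Then came Shank2 at 22.8 ± 0.796, Homer1 at 21.5 ± 4.77, Dlgap2 at 14 ± 1.37, Homer2 at 10.9 ± 1.06 and Homer3 at 5.02 ± 0.754 on the same scale. Only 2 neighbouring pairs in this order overlapped between wild-type libraries: Shank3 (32.8 to 37.8) with Dlgap1 (33.1 to 37), and Shank2 (21.8 to 23.3) with Homer1 (16 to 24.6). The order depended on the length used. The levels were also divided by the longest annotated transcript in place of all exons. Wild-type means were then 115 ± 7.77 for Dlgap3, 85.8 ± 5.59 for Dlgap1 and 77.4 ± 6.36 for Shank1. Dlgap4 stood at 70.3 ± 1.92, Homer1 at 45.0 ± 9.99 and Shank3 at 43.3 ± 3.41. By these means Dlgap1 stood above Shank1 and Dlgap4, and Homer1 above Shank3. Between wild-type libraries, however, Dlgap1 overlapped Shank1, and Homer1 overlapped Shank3. Homer3 shares 25.4% of its exon length with Ddx49 on the opposite strand, and the strand setting of the counting is not given in the sources used here, so reads of these neighbours may not have been told apart.

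**Figure D1:**
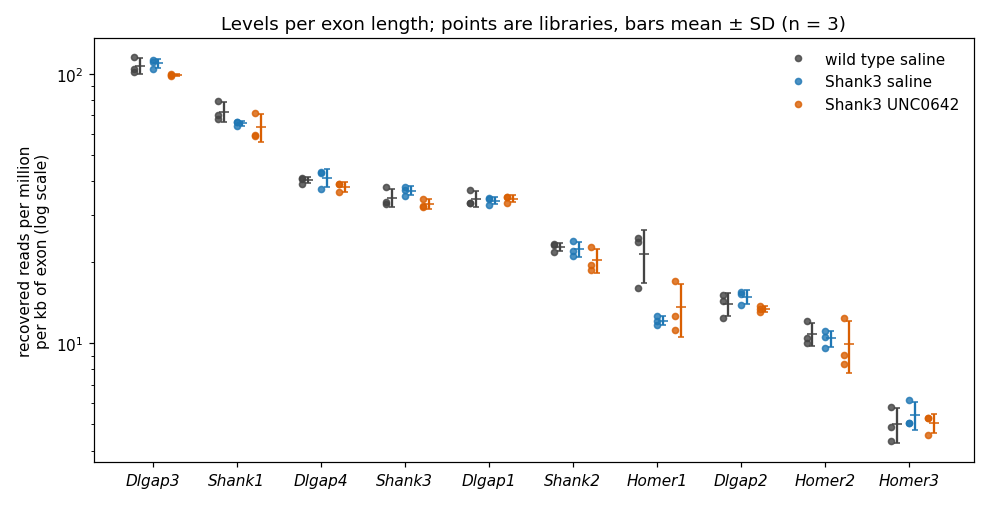
Level of each scaffold gene in recovered RPM per kb of exon (log axis), with a point for each library and a bar for the group mean ± SD (n = 3). Dlgap3 is highest and Homer3 lowest in each group, and Homer1 is the gene whose wild-type mean (21.5) stands furthest from that of the saline mutants (12.1).

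Across the 3 comparisons, the scaffold genes showed no change that passed the test on the deposited values, and a lower Homer1 in saline mutants on the recovered reads. On the deposited values, 0 of the 10 genes passed an adjusted p of 0.05 in any comparison (limma with Benjamini-Hochberg adjustment over 14444 genes), against 0% of all genes, although 19, 281 and 1238 genes had an unadjusted p under 0.05 in saline mutant against wild type, UNC0642 against saline mutant and UNC0642 against wild type. On the recovered reads, with group as the only term, Homer1 was 1 of 10 members called between saline mutant and wild type, and it was lower. The share over all genes was 12.4%, and 6.71% for lower genes alone. That share rests on 1794 calls, and leaving out 1 library gave 14 (without wild-type replicate 2), 18 (without saline mutant replicate 1), 24 (without saline mutant replicate 3), 403 (without wild-type replicate 3) or 500 (without saline mutant replicate 2), while leaving out UNC0642 replicate 3 gave 3619. With the side of each library as a further term, 0 of 10 members were called in any comparison, against 0%, 0% and 0.0346% of all genes. The comparisons share groups, so they are not independent of each other.

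**Figure D2:**
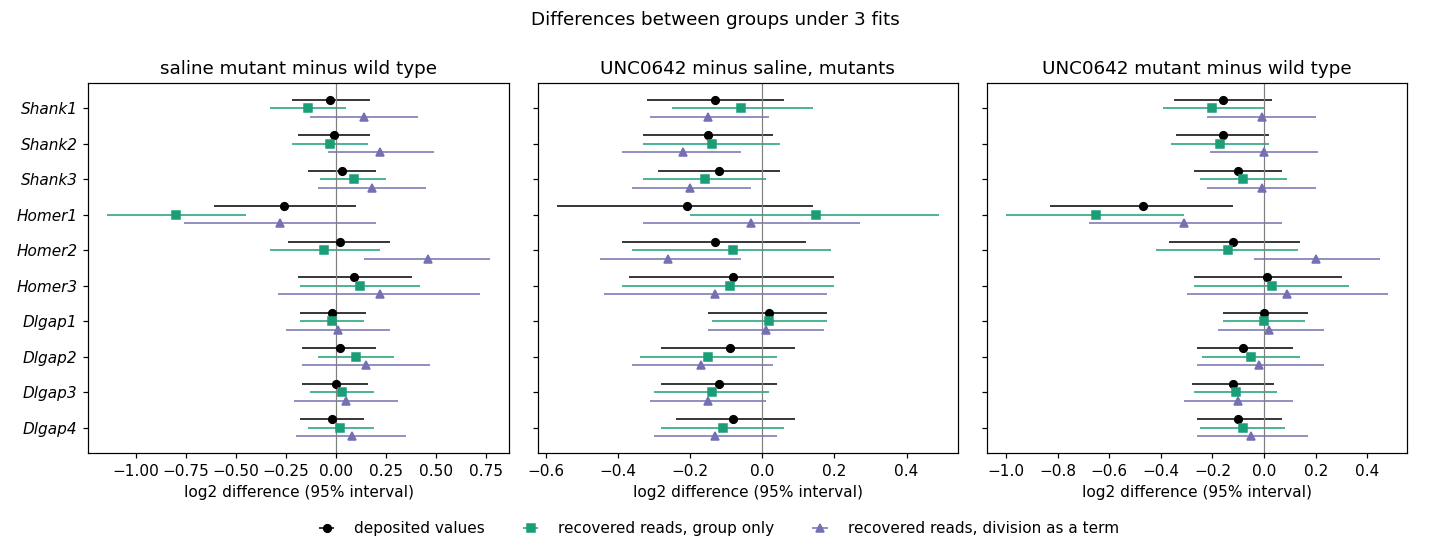
Log2 difference between groups for each scaffold gene, with 95% intervals, from the deposited values (circles), the recovered reads with group only (squares) and the recovered reads with the side of the library as a term (triangles). Homer1 in the left panel moves from -0.80 with group only to -0.28 with the side as a term, and in the middle panel 9 of 10 genes lie below 0 on the deposited values and 9 of 10 with the side as a term.

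Homer1 varied most of the 10 genes between libraries. It read 294, 285 and 191 RPM in the wild-type libraries, 151, 145 and 140 in the saline mutants, and 151, 134 and 204 under UNC0642 (replicates 1 to 3). All saline mutants lay below all wild-type libraries, as they did for 19.8% of all genes, UNC0642 replicates 1 and 2 lay close to the saline mutants, and UNC0642 replicate 3 lay within the wild-type range. These values rest on 1849 to 3794 reads per library. The coefficient of variation over the 9 libraries was 33.0%, against a median of 10.9% over the 10264 genes with at least 10 RPM on average, of which 1.15% varied more. In the other scaffold genes it ran from 3.95% for Dlgap1 to 12.7% for Homer2.

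On the recovered reads with group only, Homer1 was lower in saline mutants than in wild type by a log2 difference of -0.80 (SE 0.16, 95% interval -1.14 to -0.45, limma-voom adjusted p = 0.0179). The call was lost when saline mutant replicate 1 (-0.83, limma-voom adjusted p = 0.0795), saline mutant replicate 3 (-0.77, limma-voom adjusted p = 0.0773) or wild-type replicate 2 (-0.71, limma-voom adjusted p = 0.0962) was left out. With the side of the library as a term the difference was -0.28 (SE 0.23, 95% interval -0.76 to 0.20, limma-voom adjusted p = 0.992). In that fit the genotypes are joined through UNC0642 replicate 3 alone. Within the first side, UNC0642 replicate 3 differed from wild type by -0.31 (SE 0.21), a comparison of 1 treated library in which wild type alone gives the spread and a lack of calls says nothing about a difference. Within the second side, UNC0642 replicates 1 and 2 differed from saline mutants by -0.03 (SE 0.07, 95% interval -0.18 to 0.12, limma-voom adjusted p = 0.968). Genotype and side cannot be told apart here beyond what that library allows.

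The deposited Homer1 values were 245, 237 and 159 in wild type, 183, 175 and 169 in saline mutants and 183, 111 and 169 under UNC0642. On this scale all 3 groups overlapped. The log2 differences were -0.26 for saline mutant against wild type (SE 0.17, 95% interval -0.61 to 0.10), -0.21 for UNC0642 against saline mutant (SE 0.17, 95% interval -0.57 to 0.14) and -0.47 for UNC0642 against wild type (SE 0.17, 95% interval -0.83 to -0.12, limma adjusted p = 0.576). The first of these was -0.15, -0.17 and -0.46 without wild-type replicates 1, 2 and 3, and the last was -0.25 without UNC0642 replicate 2. The second turned to 0.01 without UNC0642 replicate 2, and to 0.15 on the recovered reads (SE 0.16). The adjusted value of UNC0642 replicate 1 lay above its RPM (183 against 151), and those of replicates 2 and 3 lay below theirs (111 against 134, and 169 against 204).

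Cell-type and activity markers were read in the same libraries. The summed level of 4 excitatory neuron markers (4 of 4 measured) was 2195, 1912 and 1621 RPM in wild type, 2247, 2160 and 2190 in saline mutants and 2278, 2168 and 1826 under UNC0642. Wild-type replicate 3 and UNC0642 replicate 3, the libraries of lowest Homer1 on their side, were also lowest in these markers. The saline mutants, low in Homer1, were as high in these markers as wild-type replicate 1. The 5 activity-regulated genes (Fos, Egr1, Arc, Npas4 and Junb) summed to 880 to 1018 RPM in wild type, 748 to 948 in saline mutants and 649 to 989 under UNC0642. Arc, whose product removes AMPA receptors from the synapse, was at 465, 398 and 453 in wild type, at 265, 352 and 313 in saline mutants and at 373, 227 and 300 under UNC0642. Junb went the other way, at 74.1, 52.6 and 68.2 in wild type, 98, 126 and 113 in saline mutants and 119, 82.7 and 70.6 under UNC0642. Fos, Egr1 and Npas4 overlapped between wild type and saline mutants.

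Markers of other cell types were read as well. Of the 6 interneuron markers, Gad1, which makes GABA, read 314, 301 and 322 RPM in wild type, 243, 250 and 244 in saline mutants and 231, 246 and 307 under UNC0642, so that UNC0642 replicate 3 lay with wild type and the other mutants lay lower, as for Homer1. Gad2 was likewise lower in saline mutants (142 to 156) than in wild type (172 to 179). Sst (261 to 292 against 196 to 215), Vip (53.5 to 65.2 against 47.3 to 50.2) and Slc32a1 (76.5 to 87.8 against 66.3 to 75.7) were higher. Pvalb overlapped (22.1 to 31.7 against 31.4 to 41.8), as did the summed interneuron markers (813 to 861 against 825 to 873). Over all genes, 19.8% had all saline mutants below wild type and 20.8% had all of them above. Summed endothelial markers were at 127, 131 and 151 in wild type and at 105, 113 and 84.3 in saline mutants, without overlap. Of the 4 genes summed, Flt1 (31.9 to 44.8 in saline mutants against 56.9 to 69.3) and Pecam1 (17.1 to 19 against 19.4 to 25.2) were lower. Cldn5 (23.6 to 36.3 against 33.5 to 34) and Tek (11.8 to 15.2 against 14.5 to 22.9) overlapped. The part of these markers in the Homer1 difference was not tested. In tissue RNA, fewer cells of a type cannot be told apart from less RNA per cell.

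The Homer1 promoter is shown because its gene is the member with a call, and the Shank3 promoter because it is the mutated gene and holds a different set of motifs. Both are the 250 bases before a RefSeq transcription start in GRCm38.p6, 5′ to 3′ on the gene's strand, Homer1 at chr13:93303507-93303756 (plus strand) and Shank3 at chr15:89499358-89499607 (plus strand). Capitals mark TGACG, the core of the cAMP response element that CREB binds, in Homer1, and CCGCCC, the reverse complement of the GC box GGGCGG, in Shank3.
Homer1: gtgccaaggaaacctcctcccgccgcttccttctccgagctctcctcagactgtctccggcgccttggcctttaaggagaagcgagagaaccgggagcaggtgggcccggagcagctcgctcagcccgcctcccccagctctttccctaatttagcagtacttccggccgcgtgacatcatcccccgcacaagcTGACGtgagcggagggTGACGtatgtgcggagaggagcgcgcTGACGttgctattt
Shank3: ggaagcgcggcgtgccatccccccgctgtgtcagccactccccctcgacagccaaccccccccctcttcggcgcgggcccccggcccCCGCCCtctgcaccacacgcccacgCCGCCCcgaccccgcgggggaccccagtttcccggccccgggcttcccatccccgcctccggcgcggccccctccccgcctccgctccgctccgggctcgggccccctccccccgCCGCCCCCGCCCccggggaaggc
The Homer1 window holds TGACG 3 times, starting at -56, -40 and -14, and its GC content is 62.4%. The Shank3 window holds the GC box 4 times, starting at -163, -138, -23 and -17, and its GC content is 82.4%, against a median of 52.4% over 32851 promoters. Searched on both strands, TGACG occurs in 17.8% of these windows and 3 or more times in 0.69%, and the GC box occurs in 32.7% and 3 or more times in 8.5%. The palindrome TGACGTCA (1.55% of windows), which contains TGACG, was in neither, and nor was the E-box CACGTG (6.02%). Of the 10 promoters found for 7 of the 10 members, only this one of Homer1 held TGACG. The letters are a description of the window, and binding was not measured.

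Homer2 and Homer3, the paralogs of Homer1 with the same EVH1 domain, showed no call. Homer2 read 127, 132 and 152 RPM in wild type, 140, 133 and 122 in saline mutants, and 114, 106 and 157 under UNC0642. The wild-type and saline mutant libraries overlapped, while UNC0642 replicates 1 and 2 were the lowest of all libraries and UNC0642 replicate 3 was the highest. Within the second side Homer2 differed by -0.26 between UNC0642 and saline mutant (SE 0.07, 95% interval -0.42 to -0.10, limma-voom adjusted p = 0.763). With the side as a term, saline mutant against wild type gave 0.46 for Homer2 (SE 0.15, 95% interval 0.14 to 0.77, limma-voom adjusted p = 0.79), against 0.02 on the deposited values and -0.06 with group only, so its direction depends on the fit. Homer3 read 14.9 to 20.0 RPM in wild type, 17.4 to 21.2 in saline mutants and 15.7 to 18.2 under UNC0642, and the groups overlapped.

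The makeup of the Homer family by length-scaled reads moved with Homer1. Homer1 made up 62.2%, 61.7% and 47.2% of Homer RPM per kb in wild type, 43.9%, 42.0% and 44.3% in saline mutants and 48.1%, 45.0% and 49.0% under UNC0642. Homer2 made up 25.4% to 35.6% in wild type, 36.6% to 38.5% in saline mutants and 33.7% to 35.8% under UNC0642. Wild-type replicates 1 and 2 thus stood apart from the other 7 libraries, with wild-type replicate 3 nearer to the mutants than to its own group. The shares rest on the exon lengths used.

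**Figure D3:**
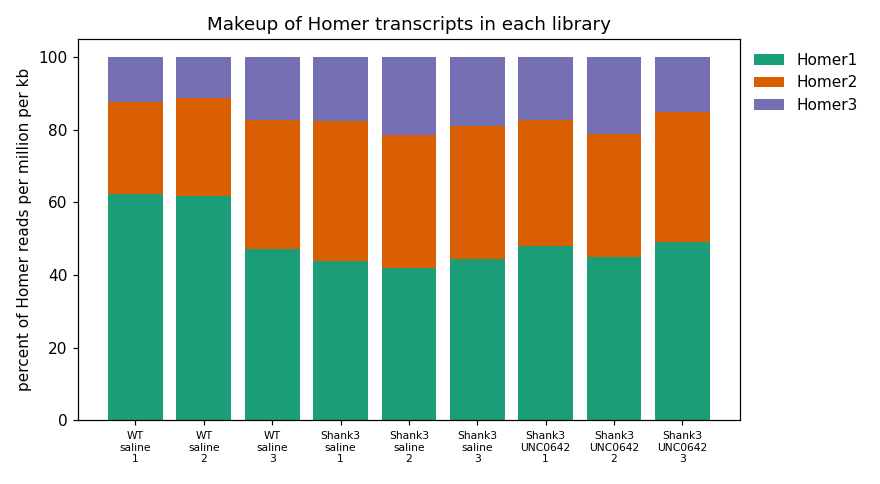
Share of Homer1, Homer2 and Homer3 in the summed Homer RPM per kb of exon, a bar for each library. Homer1 fills 62.2% and 61.7% of the first 2 wild-type bars and between 42.0% and 49.0% of the other 7.

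Shank3 RNA did not differ by a call between any groups, and its mean in saline mutants was not below that of wild type. Shank3 read 301, 308 and 348 RPM in wild type, 339, 350 and 324 in saline mutants, and 294, 296 and 316 under UNC0642. The wild-type and saline mutant libraries overlapped, and all 3 UNC0642 libraries lay below all 3 saline mutants (5.28% of all genes did so). Saline mutants differed from wild type by 0.03 on the deposited values (SE 0.08, 95% interval -0.14 to 0.20) and 0.09 on the recovered reads (SE 0.08, 95% interval -0.08 to 0.25). A gene total does not check the genotype unless the allele removes much of the transcript, and the allele is not named. Shank3 made up 26.3% to 27.0% of Shank RPM per kb in wild type, 29.3% to 29.7% in saline mutants and 26.7% to 29.4% under UNC0642, so the saline mutants lay above wild type without overlap, in a share that counts Shank1 as well.

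Shank1, which carries the same PDZ and proline-rich regions, read 736, 715 and 832 RPM in wild type, 698, 696 and 673 in saline mutants and 624, 619 and 754 under UNC0642. The saline mutants lay below wild type without overlap, as did 19.8% of all genes, and UNC0642 replicate 3 lay within the wild-type range. In log2, saline mutants differed from wild type by -0.03 on the deposited values (SE 0.09), -0.14 on the recovered reads (SE 0.09, limma-voom adjusted p = 0.292) and 0.14 with the side as a term (SE 0.12). Shank1 and Homer1 were the 2 of 10 members whose values did not overlap between the sides, against 28.2% of all genes. Shank2 read 235, 249 and 251 in wild type, 236, 258 and 227 in saline mutants and 210, 201 and 245 under UNC0642, in RPM. Its wild-type and saline mutant libraries overlapped, and UNC0642 replicates 1 and 2 were the lowest.

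Dlgap1 varied least of the 10 genes between libraries. It read 592 to 662 RPM in wild type, 585 to 618 in saline mutants and 595 to 625 under UNC0642, and its log2 difference lay within 0.02 of 0 in every comparison, with all 9 libraries, on the deposited values and on the recovered reads with or without the side as a term. Dlgap3, the member of the family whose loss in mice causes compulsive grooming, read 469, 460 and 521 in wild type, 508, 502 and 472 in saline mutants and 444, 447 and 450 under UNC0642. All UNC0642 libraries lay below all others, as for 0.429% of all genes, and the other 9 members did not show this order. On the deposited values the UNC0642 libraries of Dlgap3 were likewise below those of the saline mutants, as were 3.06% of all genes, and below wild type, as were 5.84%, but the log2 differences of -0.12 and -0.12 (SE 0.08 for each) were not called (limma adjusted p = 1.0 and 0.629). The deposited values of Dlgap4 also lay below wild type without overlap. Dlgap4 read 330 to 348 RPM in wild type, 317 to 364 in saline mutants and 307 to 330 under UNC0642. Dlgap2 read 76.5 to 92.8, 85.2 to 95.7 and 80.5 to 84.5 in the same order, with saline mutants above UNC0642 without overlap, which makes 3 of 10 members with Shank3 and Dlgap3, against 5.28% of all genes.

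**Figure D4:**
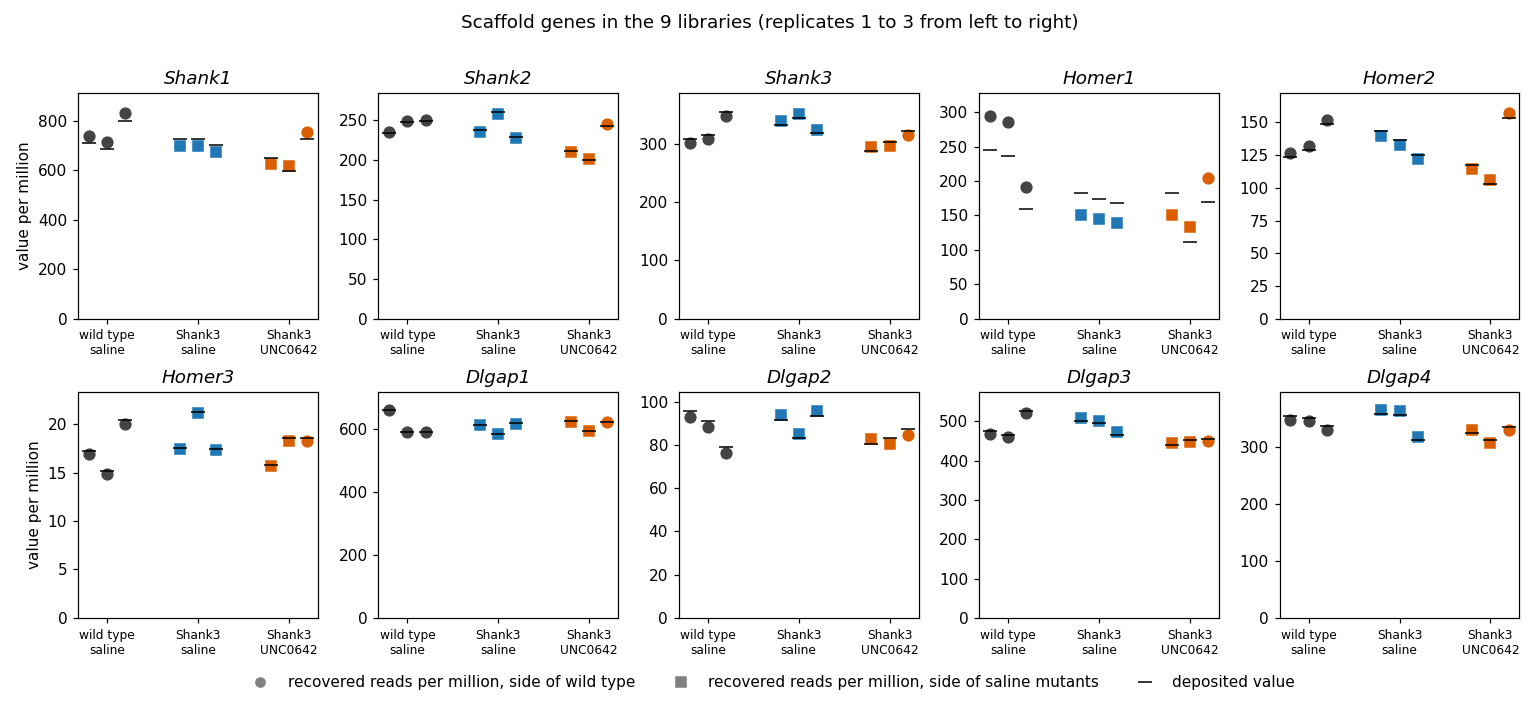
Each scaffold gene in the 9 libraries, replicates 1 to 3 from left to right in each group, as recovered RPM (circles for the side of wild type, squares for the side of the saline mutants) and as the deposited value (dashes). In Homer1 the saline mutants (140 to 151) lie below wild type (191 to 294), and in Dlgap3 the UNC0642 libraries (444 to 450) lie below the other 6.

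Between UNC0642 and saline mutants, the scaffold genes leaned to lower values without a call. On the deposited values 9 of the 10 differences were negative and their median was -0.12 on the log2 scale, against a median of 0.0028 over all genes, of which 10% lay below -0.17. Dlgap1 was the exception at 0.02. On the recovered reads with group only, 8 of 10 were negative, with Homer1 at 0.15 and Dlgap1 at 0.02. Restricted to the second side, where 3 saline mutants meet UNC0642 replicates 1 and 2, 9 of 10 were negative with a median of -0.15, against 0.001 over all genes. That side was drawn from these same recovered reads, so UNC0642 replicate 3 was left out by its expression. Differences and p within it are therefore not independent of the choice of libraries.

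Within that side, the log2 differences were -0.26 for Homer2, -0.23 for Shank2, -0.20 for Shank3, -0.17 for Dlgap2, -0.15 for Shank1 and -0.15 for Dlgap3. Both UNC0642 libraries lay below all 3 saline mutants for these 6 genes, as they did for 11.6% of all genes. The same 6 had an unadjusted p under 0.05, but 0 of 10 passed the adjustment (limma-voom adjusted p from 0.763 to 0.988 over the 10 members), and 0% of all genes were called, although 853 had an unadjusted p under 0.05. The summed excitatory neuron markers of these UNC0642 libraries (2278 and 2168 RPM) overlapped those of the saline mutants (2160 to 2247). Their summed interneuron markers (800 and 795 against 813 to 861) and astrocyte markers (1731 and 1880 against 1938 to 2077) lay below. Gene by gene, most of these markers overlapped. Of the interneuron markers only Gad2 (122 and 131 against 142 to 156) lay below, while Gad1, Slc32a1, Pvalb, Sst and Vip overlapped. Of the astrocyte markers, Aldoc (788 and 837 against 893 to 943) and Slc1a3 (569 and 625 against 627 to 696) lay below, while Aqp4, Gja1 and Gfap overlapped. The part of the markers in the difference was not tested. On the first side, UNC0642 replicate 3 differed from wild type by 0.09 or less in size for 7 of the members, by -0.10 for Dlgap3, by 0.20 for Homer2 and by -0.31 for Homer1, with 0 members called against 0.0138% of all genes. With 1 treated library there, wild type alone gives the spread, and the count of 0 says nothing about a difference. That library lay outside the wild-type range for 3 members, above it for Homer2 and below it for Dlgap3 and Dlgap4, as for 41.9% of all genes. Whether the libraries of UNC0642 differ in response was not tested.

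Against wild type, the UNC0642 group was lower on the deposited values in 8 of 10 members, with a median of -0.11 against 0.0037 over all genes and with no call (limma adjusted p from 0.58 to 0.99). Homer1 had the largest difference (-0.47, given above), followed by Shank1 and Shank2 at -0.16 each (SE 0.09 and 0.08). On the recovered reads with group only, Homer1 differed by -0.65 (SE 0.16, 95% interval -1.0 to -0.31, limma-voom adjusted p = 0.124), and 0.0762% of all genes were called. With the side as a term the 10 differences had a median of -0.01.

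The 25 partner genes, which encode proteins that bind these scaffolds directly or act beside them, were counted in the same way. On the deposited values 0 were called in any comparison, and 12 were higher and 13 lower in saline mutant against wild type, 5 higher and 20 lower in UNC0642 against saline mutant, and 6 higher and 19 lower in UNC0642 against wild type. The medians of the last 2 were -0.06 and -0.07. The 4 partners of smallest p in UNC0642 against wild type were Sipa1l1 at -0.31 (SE 0.09), Itpr1 at -0.30 (SE 0.10), Baiap2 at -0.20 (SE 0.08) and Nlgn1 at 0.22 (SE 0.09), each with a limma adjusted p of 0.576. In UNC0642 against saline mutant they were Sipa1l1 at -0.20, Cyld at -0.16, Itpr1 at -0.18 and Baiap2 at -0.12, and between saline mutant and wild type Sipa1l1 at -0.11, Itpr1 at -0.12, Nlgn1 at 0.10 and Baiap2 at -0.08.

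On the recovered reads with group only, 2 of the 25 partners were called between saline mutant and wild type, both lower, against 12.4% of all genes. Itpr1, the inositol trisphosphate receptor that the Homer EVH1 domain binds, read 1317, 1217 and 1096 RPM in wild type, 890, 863 and 874 in saline mutants and 825, 829 and 1079 under UNC0642. As for Homer1, the saline mutants and UNC0642 replicates 1 and 2 were low, and UNC0642 replicate 3 lay nearer to wild type. The log2 difference was -0.46 (SE 0.10, limma-voom adjusted p = 0.0209), and -0.08 with the side as a term (SE 0.13, limma-voom adjusted p = 0.995). The Itpr1 call was lost without any of the saline mutant replicates or without wild-type replicate 2 (limma-voom adjusted p from 0.0548 to 0.098). Sipa1l1, a RapGAP of the postsynapse also known as SPAR, read 624, 596 and 642 in wild type, 520, 511 and 486 in saline mutants and 465, 436 and 544 under UNC0642. All saline mutants lay below wild type, as they did for 19.8% of all genes. They differed from wild type by -0.30 (SE 0.09, limma-voom adjusted p = 0.0419), and by -0.02 with the side as a term (SE 0.12, limma-voom adjusted p = 0.999). The Sipa1l1 call was lost without any of the 6 saline libraries of both genotypes (limma-voom adjusted p from 0.0658 to 0.139). Without regard to the test, 7 of the 25 partners had all saline mutants below wild type, against 19.8% of all genes, and 4 (Dlg4, Cttn, Dynll1 and Dbn1) had all of them above, against 20.8%.

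Genes whose pattern over the 9 libraries was most like a member's were listed by Pearson's r of log2 RPM among 10264 genes. These are descriptions over libraries that fall on 2 sides, and the genes named are the highest of many searched. Homer1 was most like Egr3, an activity-induced transcription factor (r = 0.988, Spearman's rho = 0.95), and Aak1, a kinase of clathrin adaptors (r = 0.987, rho = 0.85). Egr3 read 346, 326 and 219 RPM in wild type, 184, 192 and 170 in saline mutants and 191, 161 and 229 under UNC0642, so it had the same low wild-type replicate 3 and the same high UNC0642 replicate 3. Shank3 was most like Adcy5, an adenylyl cyclase (r = 0.936, rho = 0.967), and Camk2a, the alpha subunit of the calcium/calmodulin-dependent kinase of the postsynaptic density (r = 0.921, rho = 0.983). Dlgap3 was most like the calcium channel subunit Cacnb3 (r = 0.921, rho = 0.95) and, as for Shank3, Adcy5 (r = 0.919, rho = 0.867).

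The other members shared none of their closest genes. Shank1 was most like Ncs1, a calcium sensor (r = 0.979, rho = 0.933), and Slc39a12, a zinc transporter (r = 0.977, rho = 0.983). Shank2 was most like Sh3rf3 (r = 0.941, rho = 0.967) and Bcr (r = 0.934, rho = 0.883). Homer2 was most like the potassium channel gene Kcnj16 (r = 0.977, rho = 0.983) and Serpine2 (r = 0.961, rho = 0.967), both of which are expressed in astrocytes. Summed astrocyte markers, like Homer2, were highest in wild-type replicate 3 (2701 RPM) and UNC0642 replicate 3 (2503), against 1731 to 2077 in the other 7 libraries. Summed microglia markers were highest in the same libraries (384 and 350, against 258 to 303 in the other 7). The part of either set of markers in the Homer2 pattern was not tested. Homer3 was most like Cntfr (r = 0.967, rho = 0.967) and Lemd2 (r = 0.943, rho = 0.9), Dlgap1 like Arpc4 (r = 0.971, rho = 0.967) and Ctc1 (r = 0.924, rho = 0.867), Dlgap2 like Ttc1 (r = 0.948, rho = 0.867) and Ptgfrn (r = 0.942, rho = 0.933), and Dlgap4 like Ncoa5 (r = 0.933, rho = 0.817) and Prkag2 (r = 0.902, rho = 0.9).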

How the data were processed

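Trizol-extracted total RNA was depleted of ribosomal RNA and made into strand-specific libraries, as the labels' protocols state. The submitters' processing notes list cutadapt, TopHat2, HTSeq and mm9. Versions, strand setting and normalization: not given in the sources used here. What the authors deposited as CPM is a signal per gene, equal in the matrix and in 9 of 9 files of separate libraries.

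Of 255 divisions of the libraries into 2 sets, 1 gave equal mean log2 values for every gene, to within 2.5e-09 (next best 0.87). Gene by gene, the shift between these sets was sought that turns all 9 values into whole reads once a prior of 3 reads, scaled to library size, is taken off. All 14444 genes had 1 solution, with 100.0% of values whole within 0.02 reads, and no value in the files was 0. RPM uses the effective library sizes behind the values, which are 0.9799 to 1.0267 times the read totals.

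The main test was limma 3.58.1 in R 4.3.3 (trend option) on log2(value + 0.5), with all 9 libraries, no term but group, and Benjamini-Hochberg adjustment over 14444 genes, called under 0.05. Folds on this scale understate changes of low genes. The design foresaw this test for values that are not counts. Recovered reads were tested with limma-voom, with group only (1794 genes called between saline mutant and wild type), with the side of the library as a term, and within each side. The sides were read from the same recovered reads, so fits that use them are not independent of the values tested. Data for saline mutant against wild type were simulated with 200 of 14444 genes changed by 1 on the log2 scale. Of these, 200 were recovered without the authors' adjustment and 0 with it, 199 by limma-voom on reads, and 150 with the side as a term. False calls were 9, 0, 7 and 8 in the same order. The simulated reads had no division into sides, unlike the real reads, so these counts do not give the power of the fits on the real reads.

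Members were all reported. Of the partners, those called, or else the 4 of smallest p, were named. Dlg4, Cttn, Dynll1, Dbn1 and single marker genes were chosen with their values in view. The members and lists were chosen with earlier results of these data known. Lengths and strand overlaps came from GENCODE M21 (GRCm38), used for no coordinates. Promoters were taken from a RefSeq table (GRCm38.p6). Alternatives were other pseudocounts, a filter on low values, median-of-ratios factors, 2 groups only, a replicate block and leaving out each library. Leaving out libraries on recovered reads (for the count of calls, Homer1, Itpr1 and Sipa1l1) was added after seeing the data. Replicate numbers were not taken as pairing the libraries. Python 3.11.15, numpy 2.4.6, pandas 2.3.3 and matplotlib 3.10.9 were also used.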

Additional observations from a re-analysis of the deposited data

How the results depend on the processing

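On the deposited values, 6 other fits (2 other pseudocounts, a filter on low values, median-of-ratios factors, 2 groups only and a replicate block) left all 180 member differences with their direction and uncalled. In this balanced design, 2 groups only and the replicate block cannot change a difference. The pseudocounts and the filter barely touch genes at these levels. The kept direction was thus largely fixed in advance. The replicate block called 0 genes in each comparison. Same-numbered libraries correlated at -0.19 to 0.307 on the deposited values and at -0.181 to 0.34 on the recovered reads. Differently numbered libraries were not compared, so these values do not settle whether the numbers pair the libraries, and they were not taken as pairing. Leaving out each library gave 270 member differences, 0 of them called, and 15 of 30 differences turned sign in some of these. The 270 include fits without a library of the group not compared, which cannot move the difference. For saline mutant against wild type the ranges were -0.07 to 0.04 for Shank1, -0.06 to 0.03 for Shank2, -0.01 to 0.09 for Shank3, -0.04 to 0.09 for Homer2, 0.00 to 0.20 for Homer3, -0.04 to 0.04 for Dlgap1, -0.06 to 0.07 for Dlgap2, -0.04 to 0.05 for Dlgap3 and -0.06 to 0.04 for Dlgap4. For UNC0642 against saline mutant they were -0.35 to 0.01 for Homer1, -0.13 to 0.01 for Homer3 and -0.01 to 0.04 for Dlgap1, and against wild type -0.27 to 0.01 for Homer2, -0.09 to 0.12 for Homer3 and -0.02 to 0.06 for Dlgap1. Homer1, which kept its sign, ranged from -0.46 to -0.15 in saline mutant and from -0.67 to -0.25 in UNC0642 against wild type. The Homer1 difference on recovered reads ranged from -1.0 to -0.69.

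On the recovered reads, saline mutant against wild type turned to -0.06 for Homer2, 0.03 for Dlgap3 and 0.02 for Dlgap4, and UNC0642 against saline mutant to 0.15 for Homer1. With the side as a term, saline mutant against wild type turned to 0.14 for Shank1, 0.22 for Shank2, 0.01 for Dlgap1, 0.05 for Dlgap3 and 0.08 for Dlgap4, and UNC0642 against wild type to 0.20 for Homer2. Within 1 side the latter was 0.20 for Homer2 and 0.00 for Shank2. The cause was not tested. Genes called in saline mutant against wild type rose from 0 to 5 with 2 groups only and to 1794 on recovered reads, where leaving out 1 library gave 14 to 3619. In UNC0642 against wild type they came to 11 on recovered reads, 5 with the side as a term, 2 within 1 side and 0 to 4 with a library left out (4 without UNC0642 replicate 1).

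With the longest transcript as length, wild-type levels per kb were 27.3 for Shank2, 43.3 for Shank3, 45.0 for Homer1, 12.5 for Homer2, 6.62 for Homer3, 85.8 for Dlgap1, 19.1 for Dlgap2, 115.0 for Dlgap3 and 70.3 for Dlgap4. Homer3, at 192 to 321 reads per library, is the member that depth limits most.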
